A study of Homo sapiens with 10 samples.

Results

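The class I and class II histone deacetylases are encoded by 10 genes, HDAC1 to HDAC10, which were picked by symbol from a table of 23284 genes measured by RNA-seq. The cells were K562, an established human line from a chronic myeloid leukemia that expresses many erythroid genes. They had been treated for 48 h with the solvent DMSO or with either concentration, 2 or 5 µM, of the compounds CBP30 and I-CBP112, and each of the 5 conditions had 2 biological replicates. CBP30 and I-CBP112 are different small molecules that both occupy the bromodomains (acetyl-lysine readers) of the acetyltransferases CREBBP and EP300. All samples are cultures of 1 line, and the 4 treatments share the same 2 DMSO samples, so their comparisons with DMSO are not independent of each other.

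Histone deacetylases remove acetyl groups from lysines of histones and other proteins, the reverse of the reaction that CREBBP and EP300 catalyse. The zinc-dependent enzymes fall into class I (HDAC1, HDAC2, HDAC3 and HDAC8), mostly nuclear enzymes of which the first 3 work inside corepressor complexes, class IIa (HDAC4, HDAC5, HDAC7 and HDAC9), which shuttle between nucleus and cytoplasm and bind MEF2 transcription factors, and class IIb (HDAC6 and HDAC10), found largely in the cytoplasm. In blood cells class I enzymes are recruited by factors such as GATA1 and are the targets of several drugs used in blood cancers.

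HDAC1 and HDAC7 were the members that moved most against DMSO, in opposite directions, and the 250 bases before their start sites show the DNA in which each gene begins. The sequences are from RefSeq (GRCh38.p14), written 5′ to 3′ on the gene's own strand and ending at the base before the start site. Capitals mark the GC box GGGCGG and the GATA motif AGATAA, each searched on both strands together with the E-box CACGTG. The HDAC1 stretch is chr1:32291833-32292082 on the plus strand, and the HDAC7 stretch is chr12:47819904-47820153 on the minus strand.
HDAC1: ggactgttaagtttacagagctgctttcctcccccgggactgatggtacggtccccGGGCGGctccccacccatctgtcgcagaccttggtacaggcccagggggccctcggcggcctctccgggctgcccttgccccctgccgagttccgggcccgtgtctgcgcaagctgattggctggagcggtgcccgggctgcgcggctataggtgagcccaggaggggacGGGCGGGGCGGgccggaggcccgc
HDAC7: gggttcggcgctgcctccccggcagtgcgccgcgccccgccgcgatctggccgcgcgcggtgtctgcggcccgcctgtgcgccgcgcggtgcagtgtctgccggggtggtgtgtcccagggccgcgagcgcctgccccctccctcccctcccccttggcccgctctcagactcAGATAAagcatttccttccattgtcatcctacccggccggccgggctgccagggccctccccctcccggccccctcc

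The HDAC1 stretch held 3 GC boxes, of which the last 2 share a base, and neither of the other motifs. The HDAC7 stretch held 1 GATA motif, 77 to 72 bases before the start site, and neither of the others, and the start site given for HDAC7 is not the most upstream one annotated for the gene. Of the 35116 promoters in the table, 42.6% held a GC box, 9.17% a GATA motif and 6.34% this E-box in the same window. Entries were given for 9 of the 10 members, with 19 start sites in all, since some members have several. A GC box stood in 8 of these 19 windows, a GATA motif in 3 (HDAC7, HDAC4 and HDAC9) and the E-box in 1 (HDAC4). Such matches describe the letters only.

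In the hg19 build used by the authors, with GENCODE v44lift37 gene models, HDAC1 spans chr1:32757684-32799236 on the plus strand and its canonical transcript has 14 exons and 2118 bases. HDAC7 spans chr12:48176505-48226915 on the minus strand, with 26 exons and 4213 bases. The other class I genes are HDAC2 (chr6:114254192-114332472), HDAC3 (chr5:141000443-141016416) and HDAC8 (chrX:71549366-71792951), all on the minus strand. The other class IIa genes are HDAC4 (chr2:239969864-240323348, minus), HDAC5 (chr17:42154114-42201070, minus) and HDAC9 (chr7:18126572-19042039, plus). The class IIb genes are HDAC6 (chrX:48659784-48683392, plus) and HDAC10 (chr22:50683612-50689834, minus).

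All 10 members were transcribed in K562 and all passed the filter of a mean of at least 0.5 FPKM, as did 12788 genes of the table. FPKM, a count of fragments scaled to transcript length and library size, is a level per length, so levels of different genes can be set side by side. With DMSO the order of mean levels was HDAC1 at 109 FPKM, HDAC3 at 61.8, HDAC2 at 41.5, HDAC7 at 32.5, HDAC6 at 22.2, HDAC8 at 15.5, HDAC10 at 11.96, HDAC5 at 9.63, HDAC9 at 6.89 and HDAC4 at 2.39. No neighbours in that order had overlapping DMSO samples. HDAC1 stood at percentile 93.6 of the tested genes by its DMSO mean, and HDAC4 at percentile 18.7. HDAC7 was the most abundant class IIa member in every condition, and HDAC4 was the least abundant of the 10.

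The erythroid identity of the line was visible, and the summed level of its markers shifted with treatment. The 8 erythroid markers fixed for K562, among them GATA1 and the globin genes, were all above the filter in the table, between 8.40 and 630 FPKM. Their summed level was 1735 to 1792 FPKM with DMSO, 596 to 827 with 2 µM CBP30, 521 to 546 with 5 µM CBP30, 999.5 to 1121 with 2 µM I-CBP112 and 959 to 1047 with 5 µM I-CBP112. The 4 markers of other blood cells summed to between 1.73 and 4.17 FPKM in every sample, with MS4A1, a B cell marker, at 0 throughout and CD3E, a T cell marker, highest with 5 µM CBP30 at 3.15 and 3.31 FPKM. Not every erythroid marker fell. TAL1 was at 17.4 and 17.4 FPKM with DMSO and at 23.4 and 24.2 with 5 µM CBP30. HBE1 in CBP30 2 µM replicate 1 was at 165 FPKM, beside 162 and 155 with DMSO. In such bulk samples, fewer cells of a kind and less RNA per cell cannot be told apart. The CBP30 2 µM replicate 1 sample stood apart: against DMSO the median of the shortest 20% of genes was 0.32 higher on the log2 scale and that of the longest 20% was -0.30, while its partner had 0.02 and -0.02. Both 5 µM CBP30 samples had -0.14 for the shortest genes and 0.12 for the longest. The part of the marker shift in the results for the deacetylases was not tested.

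**Figure D1:**
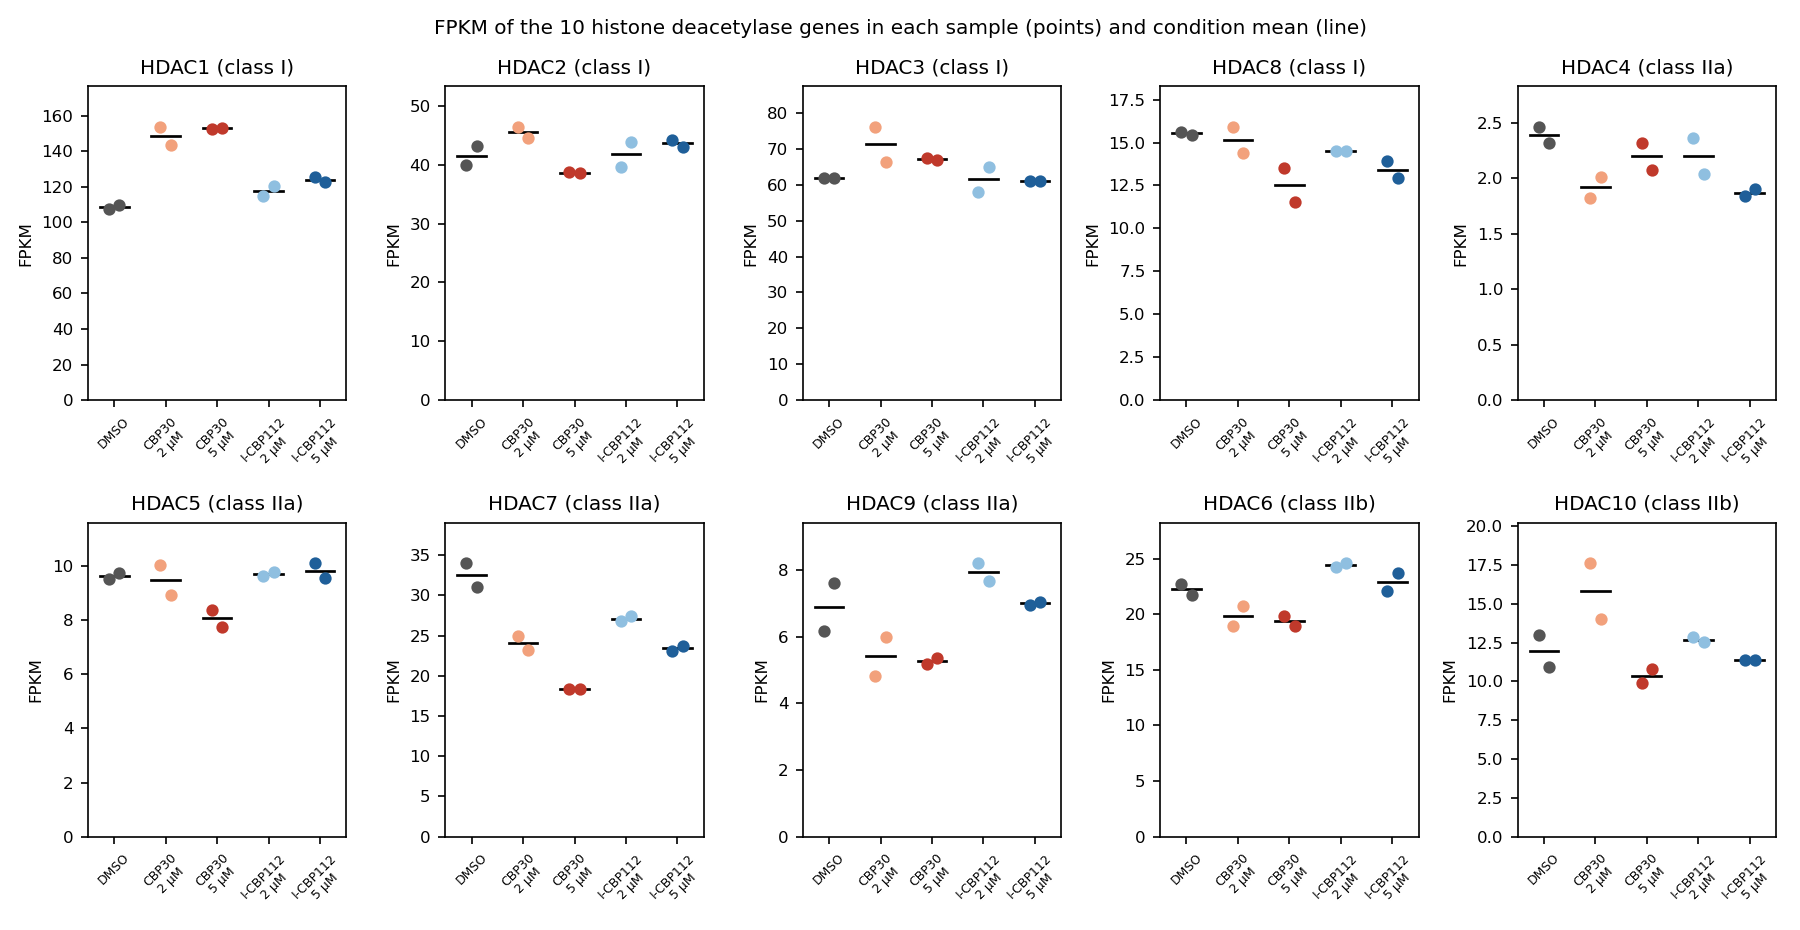
FPKM (linear axes from 0) of each deacetylase gene in every sample, as points, with the mean of the 2 replicates of each condition as a line. HDAC1 stands above its DMSO samples in all 8 treated samples, and HDAC7 stands below its DMSO samples in all 8. The highest sample is 1.85 times the lowest for HDAC7, 1.78 for HDAC10, 1.70 for HDAC9 and 1.43 for HDAC1.

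Against DMSO, HDAC1 rose and HDAC7 fell with CBP30 at both concentrations, and at 5 µM HDAC5, HDAC6, HDAC8 and HDAC9 also fell. With 5 µM CBP30, 5 of the 10 members were called lower and 1 higher, where 25.4% of all tested genes were called lower and 21.2% higher. With 2 µM CBP30, 1 member was called lower and 2 higher, against 16.3% and 15.9% of all genes. With 5 µM I-CBP112 only HDAC7 was called, as lower, and no member as higher, where 3.28% of genes were called lower and 3.84% higher. With 2 µM I-CBP112 limma called none of the 10 members (0.735% of genes lower, 0.868% higher), and 1 member, HDAC7, had an unadjusted p under 0.05. A gene was called where the Benjamini-Hochberg adjusted p of a limma fit of log2(FPKM + 1) was under 0.05. Statements below that samples lay above or below others, or did not overlap, are descriptions. With 2 samples against 2, an exact permutation test could give no p under 0.333 even for full separation. The share of all genes with such separation was not counted. The median log2 difference of the 10 members with 5 µM CBP30 was -0.19, beside -0.01 over all tested genes, and the medians of the other treatments lay between -0.03 and 0.01 for the members.

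**Figure D2:**
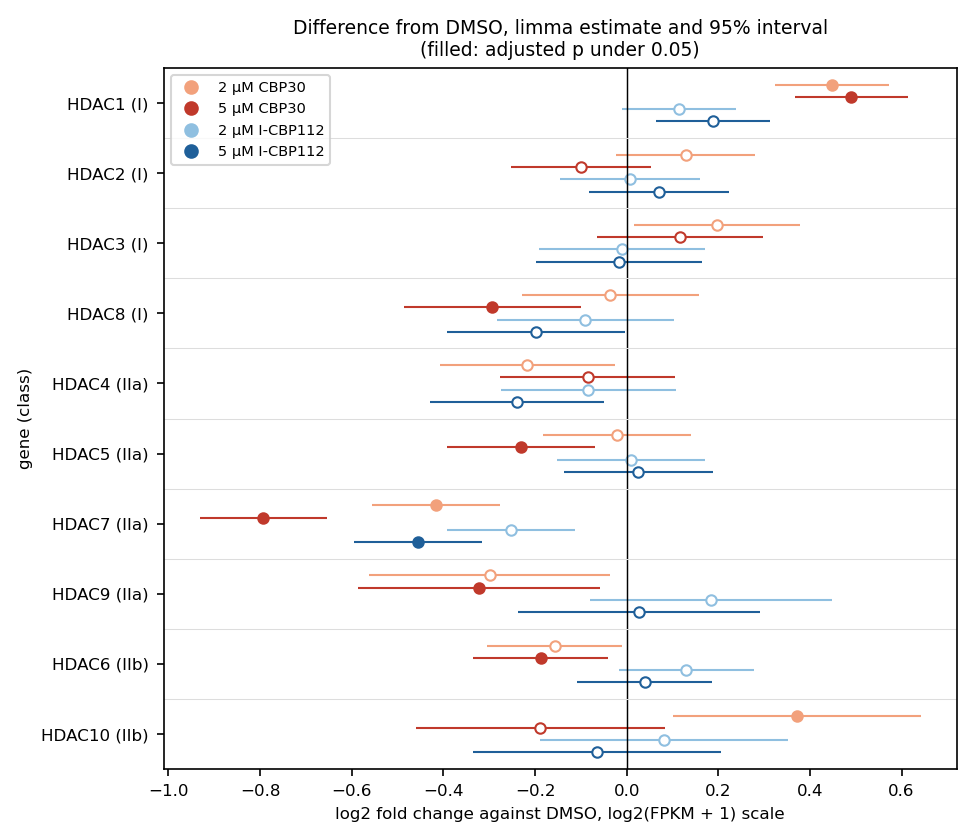
The log2 fold change of each deacetylase gene against DMSO (horizontal axis, log2(FPKM + 1) scale) for the 4 treatments, with 95% intervals from limma and filled points where the adjusted p was under 0.05. HDAC1 lies to the right at 0.45 and 0.49 with CBP30, and HDAC7 lies to the left with all 4 treatments, down to -0.79 with 5 µM CBP30.

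Among class I genes, HDAC1, a catalytic subunit of the SIN3, NuRD and CoREST complexes, was the only one called higher against DMSO. It stood at 107.4 and 109.7 FPKM with DMSO, 153.6 and 143.5 with 2 µM CBP30 and 152.6 and 153.1 with 5 µM CBP30. With 2 µM I-CBP112 it was 114.7 and 120.4, and with 5 µM 125.3 and 122.4. All 8 treated samples lay above both DMSO samples, and all 4 CBP30 samples lay above all 4 I-CBP112 samples. The mean was 137% of DMSO with 2 µM CBP30 (log2 fold change 0.45, SE 0.0526, adjusted p = 0.00128) and 141% with 5 µM CBP30 (0.49, SE 0.0526, adjusted p = 0.000355). With I-CBP112 it was 108% of DMSO at 2 µM (0.11, adjusted p = 0.409) and 114% at 5 µM (0.19, 95% interval 0.06 to 0.31, adjusted p = 0.0826), neither of which passed. Both CBP30 calls were kept in each of 10 fits that left out 1 sample, the 2 µM estimate being 0.40 without the sample that stood apart. In a fit of the 2 µM CBP30 and DMSO samples alone, the adjusted p was 0.0797. The annotation holds processed pseudogene copies of HDAC1, and how reads alike in both were assigned is not given in the sources used here.

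HDAC2, the closest relative of HDAC1 and its partner in the same complexes, was not called against DMSO with any treatment. Its levels were 39.9 and 43.2 FPKM with DMSO, 46.4 and 44.6 with 2 µM CBP30 and 38.7 and 38.6 with 5 µM CBP30. The I-CBP112 samples had 39.6 and 43.9 at 2 µM and 44.2 and 43.1 at 5 µM. The 2 µM CBP30 samples lay above both DMSO samples and the 5 µM CBP30 samples below both. Against DMSO the log2 difference was 0.13 at 2 µM (95% interval -0.02 to 0.28) and -0.10 at 5 µM (95% interval -0.25 to 0.05). With the length trend removed the 2 µM difference was 0.34 and was called (adjusted p = 0.0308), and over the 20 alternatives tried the 5 µM difference ranged from -0.22 to -0.02 and was never called.

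HDAC3, the catalytic subunit of the NCoR/SMRT complexes, was not called in any of the 8 comparisons. It stood at 61.7 and 61.9 FPKM with DMSO, 76.1 and 66.3 with 2 µM CBP30 and 67.4 and 66.7 with 5 µM CBP30. In the I-CBP112 samples it was 58.1 and 65.0 at 2 µM and 61.1 and 61.1 at 5 µM. The 4 CBP30 samples were above both DMSO samples, by 0.20 on the log2 scale at 2 µM (95% interval 0.02 to 0.38, adjusted p = 0.0910) and 0.12 at 5 µM (95% interval -0.07 to 0.30, adjusted p = 0.255). The 5 µM difference was called under 4 of the 20 alternatives, at 0.23 after quantile normalization (adjusted p = 0.00423), at 0.24 with the length trend removed (0.00191, or 0.00274 under a replicate block too) and at 0.12 in a fit of those 4 samples alone (0.0131). The 2 µM difference was called under 2 of them, quantile normalization and leaving out CBP30 2 µM replicate 2.

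HDAC8, a class I enzyme that acts outside these complexes and deacetylates the cohesin subunit SMC3, fell with 5 µM CBP30. Its levels were 15.6 and 15.4 FPKM with DMSO, 15.9 and 14.4 with 2 µM CBP30 and 13.5 and 11.5 with 5 µM CBP30. With 2 µM I-CBP112 it was 14.5 and 14.5, and with 5 µM 13.9 and 12.9. The 5 µM samples of both compounds and the 2 µM I-CBP112 samples lay below DMSO. The 5 µM CBP30 mean was 80.7% of DMSO (log2 fold change -0.29, SE 0.0824, adjusted p = 0.0233), and the 5 µM I-CBP112 mean was 86.4% (-0.20, adjusted p = 0.217). The call was lost without DMSO replicate 1 (adjusted p = 0.101), without DMSO replicate 2 (0.0847), without CBP30 5 µM replicate 2 (-0.19, 0.137), and, at -0.16, with the length trend removed (0.0816).

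Among class IIa genes, HDAC7, a repressor of MEF2 targets known from lymphoid and endothelial cells, showed the largest change of the 10 members. It stood at 34.0 and 31.1 FPKM with DMSO, 25.0 and 23.3 with 2 µM CBP30 and 18.3 and 18.3 with 5 µM CBP30. The I-CBP112 samples had 26.8 and 27.4 at 2 µM and 23.1 and 23.8 at 5 µM. Every treated sample was below both DMSO samples, and for each compound both 5 µM samples lay below both 2 µM samples. The mean was 74.1% of DMSO with 2 µM CBP30 (log2 fold change -0.42, SE 0.0592, adjusted p = 0.00265) and 56.4% with 5 µM CBP30 (-0.79, SE 0.0592, adjusted p = 7.34e-05). It was 0.720 of the DMSO mean with 5 µM I-CBP112 (-0.46, SE 0.0592, adjusted p = 0.00646) and, at 2 µM, 83.4% of it (-0.25, adjusted p = 0.108), which did not pass. The CBP30 calls were kept whichever sample was left out. The 2 µM CBP30 call had an adjusted p of 0.102 in a fit of those 4 samples alone, and the I-CBP112 call was lost without DMSO replicate 1 (-0.39, adjusted p = 0.0530), without I-CBP112 5 µM replicate 1 (-0.44, 0.0678) and without I-CBP112 5 µM replicate 2 (-0.48, 0.0531). Exons of HDAC7 overlap by 30 bases with those of SLC48A1, a heme transporter gene on the opposite strand, which was at 13.4 and 12.8 FPKM with DMSO and 8.90 and 8.94 with 5 µM CBP30.

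HDAC9, a class IIa gene studied in muscle and regulatory T cells, fell with 5 µM CBP30 near the threshold. It stood at 6.16 and 7.61 FPKM with DMSO, 4.83 and 5.99 with 2 µM CBP30 and 5.19 and 5.37 with 5 µM CBP30. In the I-CBP112 samples it was 8.20 and 7.66 at 2 µM and 6.95 and 7.06 at 5 µM. The CBP30 samples were below both DMSO samples, while the 2 µM I-CBP112 samples were above them. The 5 µM CBP30 mean was 76.6% of DMSO (log2 fold change -0.32, SE 0.112, adjusted p = 0.0496) and the 2 µM mean 78.5% (-0.30, adjusted p = 0.0811). The 5 µM call was kept in only 3 of the 10 fits that left out a sample, namely DMSO replicate 1 and either 2 µM CBP30 sample, and the adjusted p of the other 7 ranged from 0.0761 to 0.261. It was also lost without a filter (adjusted p = 0.0791), with the filter at 5 FPKM (0.0555), without the mean-variance trend (0.0506) and in a fit of those 4 samples alone (0.0696). The other 6 processing alternatives kept it, at -0.44 with the length trend removed (adjusted p = 0.000845) and -0.35 after quantile normalization (0.0190).

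HDAC5, which shuttles out of the nucleus when phosphorylated, fell with 5 µM CBP30 and was not called with the other treatments. Its levels were 9.52 and 9.74 FPKM with DMSO, 10.0 and 8.93 with 2 µM CBP30 and 8.39 and 7.75 with 5 µM CBP30. With 2 µM I-CBP112 it was 9.62 and 9.77, and with 5 µM 10.1 and 9.56. Only the 5 µM CBP30 samples were clear of the DMSO samples, at 83.8% of the DMSO mean (log2 fold change -0.23, SE 0.0686, adjusted p = 0.0293). The call was kept without either 2 µM CBP30 or either 5 µM I-CBP112 sample and lost without each of the other 6, with adjusted p between 0.0521 and 0.167. Exons of HDAC5 and of G6PC3, a glucose-6-phosphatase gene on the opposite strand, overlap by 908 bases, and G6PC3 was at 42.5 and 41.7 FPKM with DMSO and 48.7 and 49.9 with 5 µM CBP30. HDAC4, the least abundant member, was not called in any comparison. It stood at 2.46 and 2.32 FPKM with DMSO, 1.82 and 2.01 with 2 µM CBP30 and 2.32 and 2.07 with 5 µM CBP30. The I-CBP112 samples had 2.36 and 2.04 at 2 µM and 1.84 and 1.90 at 5 µM. The 2 µM CBP30 and 5 µM I-CBP112 samples were below both DMSO samples, at log2 differences of -0.22 (adjusted p = 0.0806) and -0.24 (adjusted p = 0.136).

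In class IIb, HDAC6, the tubulin deacetylase of the cytoplasm, fell with 5 µM CBP30 by a small amount. It stood at 22.7 and 21.8 FPKM with DMSO, 18.9 and 20.8 with 2 µM CBP30 and 19.8 and 18.96 with 5 µM CBP30. In the I-CBP112 samples it was 24.3 and 24.6 at 2 µM and 22.0 and 23.7 at 5 µM. All CBP30 samples were below DMSO and the 2 µM I-CBP112 samples were above it. The 5 µM CBP30 mean was 87.3% of DMSO (log2 fold change -0.19, SE 0.0626, adjusted p = 0.0434), and this call was kept in the fits without either 2 µM CBP30 sample and lost without each of the other 8 samples (adjusted p 0.0560 to 0.195). It was also lost without a filter (0.0505), after quantile normalization (-0.14, 0.121), without the mean-variance trend (0.0528) and under a replicate block (0.0594).

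HDAC10, a polyamine deacetylase, was called higher with 2 µM CBP30, where its replicates differed widely. It stood at 13.0 and 10.9 FPKM with DMSO, 17.6 and 14.02 with 2 µM CBP30 and 9.88 and 10.8 with 5 µM CBP30. With 2 µM I-CBP112 it was 12.8 and 12.5, and with 5 µM 11.4 and 11.4. The 2 µM CBP30 samples were above all others, and the 5 µM CBP30 samples were below both DMSO samples. The 2 µM mean was 132% of DMSO (log2 fold change 0.37, SE 0.115, adjusted p = 0.0457), and without the replicate that stood apart by gene length it was 0.22 (adjusted p = 0.138). The call was kept only without the other 2 µM replicate (0.53, adjusted p = 0.00547) and lost without each of the remaining 9 samples (adjusted p 0.0586 to 0.232), without a filter (0.0701) and in a fit of those 4 samples alone (0.242). HDAC10 shares 615 exonic bases on the same strand with MAPK12, a p38 kinase gene, so reads there cannot be told apart. MAPK12 was at 18.7 and 16.5 FPKM with DMSO and 25.98 and 18.9 with 2 µM CBP30.

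Between 2 and 5 µM CBP30, 5 members were called lower at the higher concentration and none higher, where 21.3% of all genes were called lower and 17.6% higher. HDAC7 fell further by 0.38 on the log2 scale (adjusted p = 0.00578), a difference kept in all 10 fits that left out a sample but not in the fit of those 4 samples alone (adjusted p = 0.132). HDAC10 was lower by -0.56 (adjusted p = 0.0124), which was lost without CBP30 5 µM replicate 1 (0.0795) or replicate 2 (0.0585), while MAPK12, its overlapping neighbour, differed by -0.66 (adjusted p = 0.0144). HDAC2 differed by -0.23 (adjusted p = 0.0313), HDAC8 by -0.26 (0.0444) and HDAC5 by -0.21 (0.0486). Without the 2 µM replicate that stood apart these were -0.20 (0.0791), -0.19 (0.150) and -0.13 (0.137), none of them called. With the length trend removed HDAC2 differed by -0.56 (adjusted p = 0.00407), HDAC5 by -0.36 (0.0130) and HDAC8 by -0.03 (0.756). HDAC2 was also lost without either 5 µM sample of either compound (0.0564 to 0.125), HDAC8 was kept only without CBP30 2 µM replicate 2 or CBP30 5 µM replicate 1, and HDAC5 only without CBP30 2 µM replicate 2. HDAC2 was lost after quantile normalization (-0.13, adjusted p = 0.0970), and the fit of the 4 samples alone called none of the 5. Without a filter HDAC8 (0.0662) and HDAC5 (0.0743) were lost. HDAC5 was also lost without the mean-variance trend (0.0516) and under the replicate block (0.0502). HDAC1 differed between the concentrations by 0.04 (95% interval -0.08 to 0.17) and was not called, but it was called at 0.24 after quantile normalization (adjusted p = 0.0107) and at 0.22 with the length trend removed (adjusted p = 0.00302). HDAC9, also not called, was called at -0.35 with the length trend removed (adjusted p = 0.00654).

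Between 2 and 5 µM I-CBP112 limma called no member, and 0.00782% of all genes lower and 0.0547% higher. HDAC7 was the only member with an unadjusted p under 0.05, at -0.20 (95% interval -0.34 to -0.06, adjusted p = 0.641). For the other 9 members the estimates lay between -0.16 and 0.07.

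At the same concentration the compounds differed in HDAC1 and HDAC6 both at 2 and at 5 µM. At 5 µM, 3 members were called lower with CBP30 than with I-CBP112 and 1 higher, where 17.9% of all genes were lower and 13.6% higher, and at 2 µM 2 were lower and 1 higher, against 8.45% and 7.13%. HDAC1 was higher with CBP30 by 0.33 at 2 µM (95% interval 0.21 to 0.46, adjusted p = 0.00982) and by 0.30 at 5 µM (95% interval 0.18 to 0.43, adjusted p = 0.00574). The 5 µM difference was kept under every alternative tried, and the 2 µM one was lost without I-CBP112 2 µM replicate 1 (adjusted p = 0.0712) and in a fit of those 4 samples alone (0.258). HDAC7 was lower with CBP30 at 5 µM by -0.34 (95% interval -0.48 to -0.20, adjusted p = 0.00593), also kept under every alternative, and differed at 2 µM by -0.16 (95% interval -0.30 to -0.03, adjusted p = 0.0972).

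HDAC6 was lower with CBP30 than with I-CBP112 at both concentrations, by -0.29 at 2 µM (adjusted p = 0.0276) and -0.23 at 5 µM (adjusted p = 0.0318), with no overlap of samples. HDAC9 was lower by -0.48 at 2 µM (adjusted p = 0.0328), and its difference at 5 µM was -0.35 (95% interval -0.61 to -0.09, adjusted p = 0.0513). HDAC5 was lower at 5 µM by -0.26 (adjusted p = 0.0291), and at 2 µM the difference was -0.03 (95% interval -0.19 to 0.13). Of the 10 fits that left out a sample, the HDAC6 calls were kept in 4 at 2 µM and 2 at 5 µM, the HDAC9 call in 3 and the HDAC5 call in 2. The sets kept were those without either 2 µM CBP30 sample for HDAC5 and HDAC6 at 5 µM, those and either 5 µM I-CBP112 sample for HDAC6 at 2 µM, and either DMSO sample or CBP30 2 µM replicate 2 for HDAC9. Lost calls had adjusted p from 0.0534 to 0.174, and without CBP30 2 µM replicate 1 HDAC9 was at -0.35 (0.0740). The 2 µM calls of HDAC6 and HDAC9 were also lost in the fit of those 4 samples alone (0.282 and 0.267), that of HDAC9 without a filter (0.0548), and the HDAC6 call at 5 µM after quantile normalization (-0.20, 0.0534). With the length trend removed the 2 µM difference of HDAC9 was -0.25 (adjusted p = 0.0359) and its 5 µM difference was called at -0.49 (adjusted p = 0.000804). For HDAC2, HDAC3, HDAC4, HDAC8 and HDAC10 no difference between the compounds passed, with 95% intervals that reached from -0.39 to 0.56 over both concentrations. With the length trend removed HDAC2 (-0.31, adjusted p = 0.0417) and HDAC3 (0.26, adjusted p = 0.00205) were called at 5 µM and HDAC2 (0.35, adjusted p = 0.0398) at 2 µM.

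**Figure D3:**
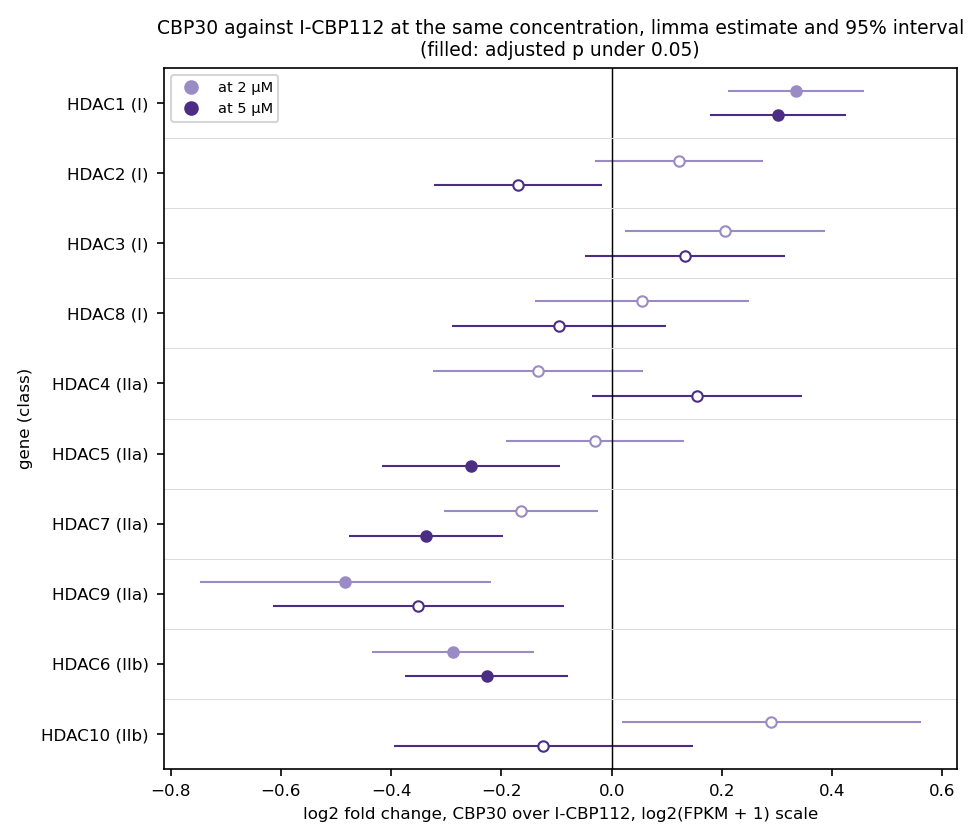
The log2 fold change of CBP30 over I-CBP112 at the same concentration for each deacetylase gene (horizontal axis, log2(FPKM + 1) scale), with 95% intervals from limma and filled points where the adjusted p was under 0.05. HDAC1 lies right of 0 at both concentrations (0.33 and 0.30) and HDAC6 left of 0 at both (-0.29 and -0.23).

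These differences changed the makeup of the deacetylase mRNA pool. HDAC1 was 2.69 and 2.54 times the level of HDAC2 with DMSO, 3.31 and 3.22 times with 2 µM CBP30, 3.94 and 3.96 times with 5 µM CBP30, and between 2.74 and 2.90 times in the 4 I-CBP112 samples. The CBP30 samples were above all others in this ratio, and the 5 µM samples above the 2 µM ones. These ratios have the length trend left in, and HDAC2 is among the longest 20% of genes. With the trend removed, the 2 µM CBP30 differences from DMSO were alike, at 0.38 for HDAC1 and 0.34 for HDAC2. At 5 µM HDAC1 was then at 0.60, and HDAC2 was below DMSO under every alternative (-0.22 to -0.02). Class I made up 71.9% and 73.4% of the summed FPKM of the 10 genes with DMSO and 81.0% in both samples with 5 µM CBP30, while the sum itself went from 313 ± 0.848 to 335 ± 2.02 FPKM (SD, n = 2). With 2 µM CBP30 the sum was 357 ± 18.7 FPKM. The total FPKM of all genes also differed between samples. It was highest in CBP30 2 µM replicate 1 (689095) and lowest in CBP30 5 µM replicate 1 (547504), and the sums were not scaled to it.

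The class IIa sum was 51.4 ± 0.987 FPKM with DMSO, 40.9 ± 1.04 with 2 µM CBP30, 33.9 ± 0.505 with 5 µM CBP30, 47.0 ± 0.0762 with 2 µM I-CBP112 and 42.1 ± 0.237 with 5 µM I-CBP112 (SD, n = 2). No treated sample overlapped the DMSO samples in this sum. HDAC7 supplied 65.2% and 61.2% of it with DMSO and 53.6% and 54.7% with 5 µM CBP30. The class IIb sum was 34.2 ± 2.13 FPKM with DMSO and 29.7 ± 0.0542 with 5 µM CBP30. These sums and shares over the members are descriptions and were not tested.

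**Figure D4:**
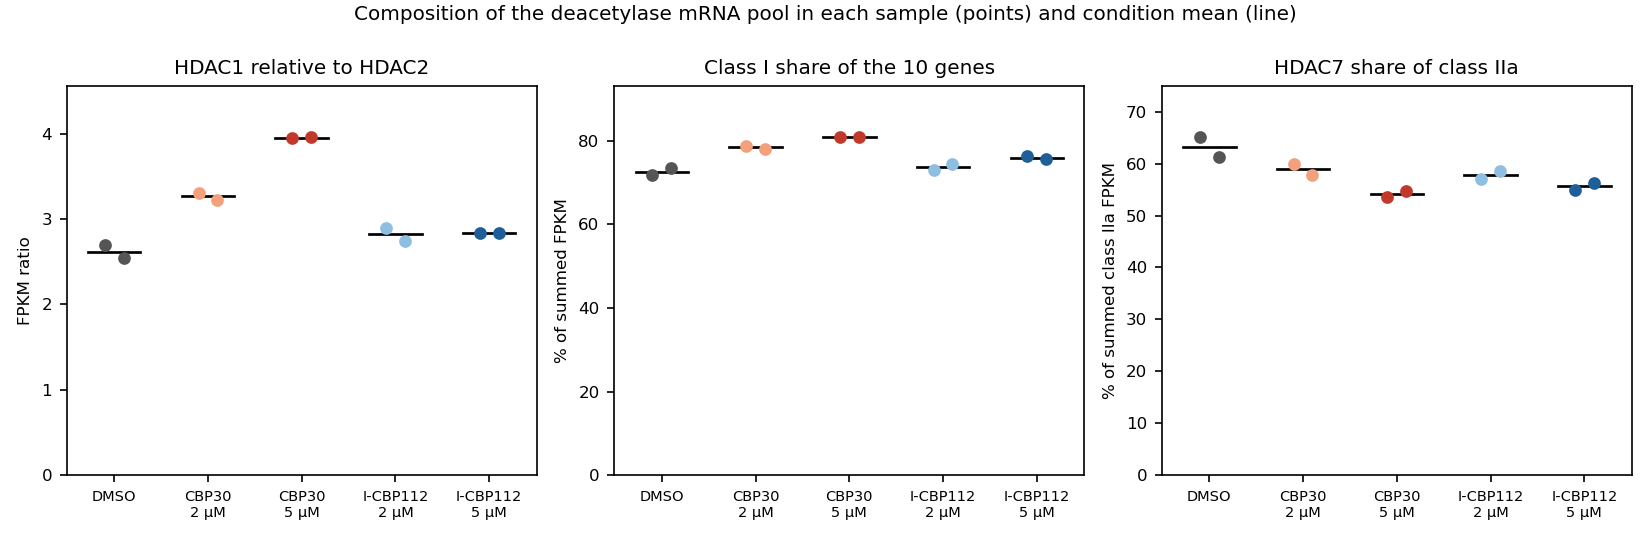
The HDAC1 to HDAC2 ratio of FPKM, the class I share of the summed FPKM of the 10 genes, and the HDAC7 share of class IIa, in each sample (points) with the condition mean (line) and axes from 0. The ratio reaches 3.94 and 3.96 with 5 µM CBP30 beside 2.69 and 2.54 with DMSO.

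The order of levels changed in few places. With 5 µM CBP30, HDAC6 at 19.4 FPKM stood above HDAC7 at 18.3, the reverse of their order with DMSO, and the samples of the 2 genes did not overlap. With 5 µM I-CBP112 the samples of HDAC7 and HDAC6 overlapped, as did those of HDAC10 and HDAC8 with 2 µM CBP30. HDAC1, HDAC3 and HDAC2 were the top 3 in every condition.

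The genes whose pattern over the 10 samples was most like that of HDAC7, by Pearson's r of log2(FPKM + 1), were LRP5, a WNT coreceptor gene (r = 0.991), PPOX, a heme synthesis enzyme gene (0.990), and AFMID (0.982). PPOX averaged 24.9 FPKM with DMSO and 12.1 with 5 µM CBP30. Those most like HDAC1 were LINC00085, a gene listed under a noncoding RNA symbol (0.995), ARPC5, an actin-nucleating complex subunit (0.994), and LAPTM4B, a lysosomal membrane protein gene (0.994). HDAC1 and HDAC7 themselves had r = -0.84. These are descriptions of 10 samples in 5 conditions, from which the genes were picked as the highest of all tested.

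The mRNAs of genes whose products work with the deacetylases were called in both directions, in numbers to be read against the shares of all tested genes. Of 92 such genes in 8 lists, 87 were tested, and with 5 µM CBP30 16 were called lower and 26 higher, where 25.4% of all genes were lower and 21.2% higher. With 2 µM CBP30 14 were lower and 18 higher, against 16.3% and 15.9% of all genes. The higher I-CBP112 concentration gave 2 lower and 2 higher, where 3.28% of all genes were lower and 3.84% higher. At 2 µM I-CBP112 limma called none of the 87, with 6 at an unadjusted p under 0.05. The all-gene shares there were 0.735% lower and 0.868% higher. The median log2 difference of the 87 with 5 µM CBP30 was 0.13, beside -0.01 for all genes.

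The SIN3, NuRD and CoREST complexes hold HDAC1 and HDAC2. The counts below are to be read beside the 25.4% of all tested genes called lower and 21.2% called higher with 5 µM CBP30. Of 15 SIN3 complex genes, 5 were called higher with 5 µM CBP30 and none lower (median 0.16), among them ARID4B, a chromatin-binding subunit, from 9.26 and 9.68 to 13.8 and 14.1 FPKM (log2 fold change 0.52, adjusted p = 0.00144), and SUDS3, a scaffold subunit (0.42, adjusted p = 0.0108). Of 12 tested NuRD genes, 3 were lower and 3 higher. MTA1, its metastasis-associated subunit, fell from 37.01 and 36.2 to 23.0 and 22.9 FPKM (-0.65, adjusted p = 6.28e-05) and GATAD2A fell (-0.30, adjusted p = 0.00355), while the alternative subunit GATAD2B rose (0.61, adjusted p = 0.00213), as did the remodelling ATPase CHD4 (0.39, adjusted p = 0.00395). Of 10 CoREST genes, 3 were lower and 3 higher. RCOR1, the scaffold, fell from 29.8 and 31.2 to 21.4 and 21.6 FPKM (-0.49, adjusted p = 0.00171), and so did KIAA0182, now named GSE1 (-0.30, adjusted p = 0.0199), while PHF21A (0.26, adjusted p = 0.0358) and RCOR3 (0.24, adjusted p = 0.0495) rose. With 2 µM CBP30 RCOR1 was at -0.69 (adjusted p = 0.00092) and KIAA0182 at -0.42 (0.00825). PHF21A (0.03, 0.800) and RCOR3 (-0.04, 0.728) were not called at 2 µM.

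Of the 6 genes of the NCoR/SMRT complexes, which hold HDAC3, 3 were lower and 1 higher with 5 µM CBP30, and 4 were lower and none higher with 2 µM, beside all-gene shares of 25.4% and 21.2% at 5 µM and 16.3% and 15.9% at 2 µM. CORO2A fell from 6.96 and 7.05 to 4.28 and 4.44 FPKM (log2 fold change -0.58, adjusted p = 0.000220) and was also called with 5 µM I-CBP112 (-0.45, adjusted p = 0.00507). TBL1X fell (-0.48, adjusted p = 0.00351) and GPS2 rose (0.36, adjusted p = 0.0349). With 2 µM CBP30 the estimates were -0.77 for CORO2A (adjusted p = 0.000195) and -0.65 for TBL1X (0.00194), both further from DMSO than at 5 µM. GPS2 was at 0.25 there and was not called (0.125). Of the 4 genes listed for the mitotic deacetylase complex, 2 were tested, and its scaffold C14orf43, now named MIDEAS, fell (-0.54, adjusted p = 0.00123). Among the other 8 deacetylase genes (HDAC11 and the sirtuins), SIRT6 was lower with 5 µM CBP30 (-0.54, adjusted p = 0.0463) and SIRT1 higher (0.38, adjusted p = 0.00353).

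Of 21 tested genes for class IIa partners and kinases, 3 were called lower and 9 higher with 5 µM CBP30 (median 0.23), beside 25.4% and 21.2% of all genes, and limma called none with either concentration of I-CBP112, with 5 at an unadjusted p under 0.05 at 5 µM and 3 at 2 µM. The adaptor genes YWHAZ (0.42, adjusted p = 0.00225) and YWHAQ (0.41, adjusted p = 0.000660), whose products hold phosphorylated class IIa enzymes in the cytoplasm, rose, and RFXANK, an ankyrin-repeat partner, fell (-0.54, adjusted p = 0.0217). Of 15 genes for substrates and partners of HDAC6 and HDAC8, 2 were lower and 5 higher with 5 µM CBP30. With 5 µM I-CBP112 1 was lower and 2 higher, where all genes had 3.28% and 3.84%. TUBA1A, an alpha-tubulin gene, went from 12.3 and 13.4 FPKM with DMSO to 32.8 and 31.1 with 5 µM CBP30 (1.25, SE 0.133, adjusted p = 0.000341) and to 19.04 and 20.1 with 5 µM I-CBP112 (0.57, adjusted p = 0.0480). Alpha-tubulin genes are alike in sequence, so reads may be shared among them. HSP90AA1, a chaperone that HDAC6 deacetylates, was called higher with CBP30 at 5 µM (0.65, adjusted p = 0.000157) and 2 µM (0.32, adjusted p = 0.00665). It was also called with the higher I-CBP112 concentration (0.25, adjusted p = 0.0478). NAT6, now NAA80, an actin acetyltransferase gene, was lower with 5 µM of either compound (-0.79 for CBP30, adjusted p = 0.000785, against -0.44 for I-CBP112, adjusted p = 0.0464), CTTN, the cortactin gene, was lower with CBP30 (-0.41, adjusted p = 0.00131), and ESCO2, a cohesin acetyltransferase gene, was higher (0.66, adjusted p = 0.00150).

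**Figure D5:**
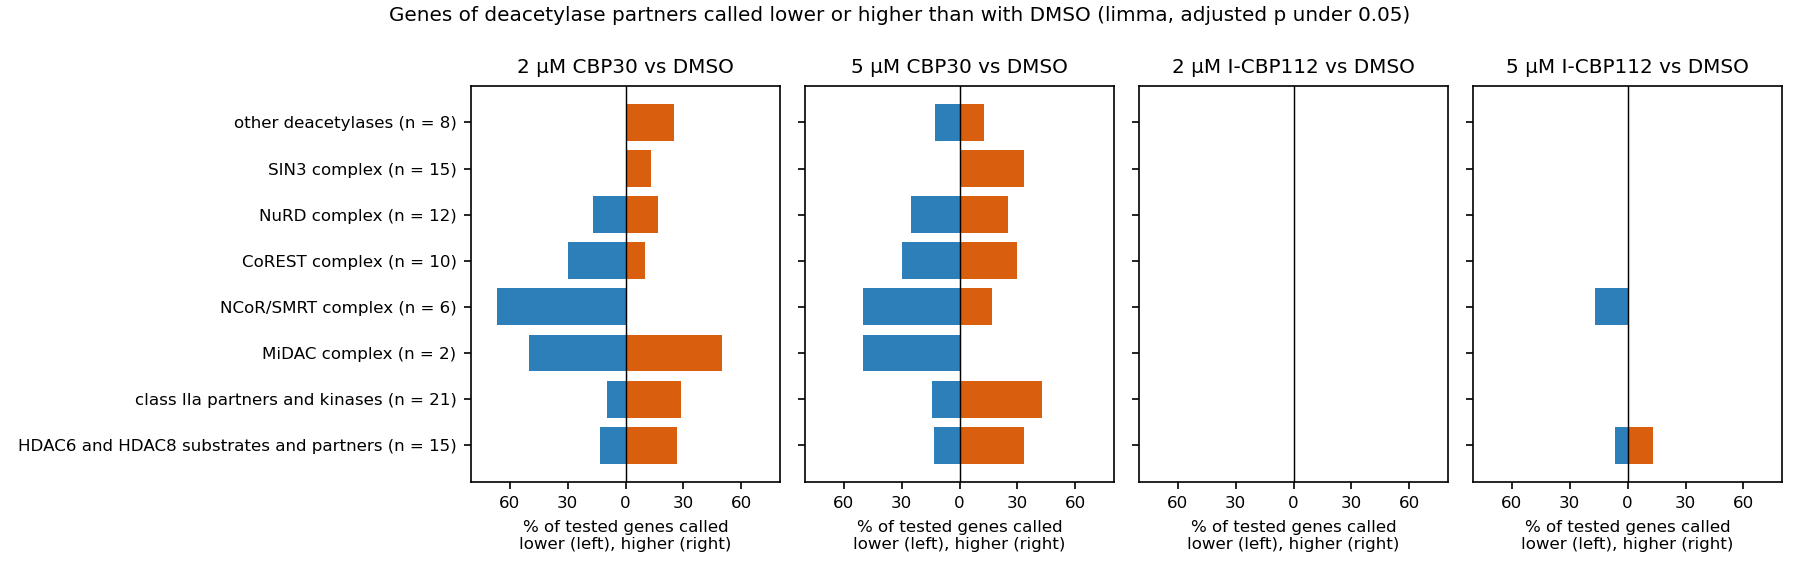
Percent of the tested genes of each list called lower (bars to the left) or higher (bars to the right) than with DMSO for the 4 treatments, with limma and an adjusted p under 0.05. Bars are seen for both CBP30 concentrations, none for 2 µM I-CBP112, and few for 5 µM I-CBP112.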

How the data were processed

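Poly(A) RNA of K562 cells was sequenced from stranded libraries, and the authors deposited 1 table of normalized FPKM per gene, made on hg19. The submitters' processing notes name FastQC, TopHat2 2.0.10, Bowtie 1.0.0, SAMtools 0.1.19, Cufflinks 2.2.1 and Cuffnorm. The gene annotation, and whether counting used the strand, are not given in the sources used here. Read depth is unknown, since the table holds no counts. FPKM summed to 547504 to 689095 per sample.

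The members were the rows named HDAC1 to HDAC10. Members and gene lists were chosen with earlier results of these data known. Of the table's 23284 genes, 3976 were at 0 in all samples, and the 12788 with a mean of at least 0.5 FPKM were tested with limma 3.58.1 in R 4.3.3 on log2(FPKM + 1), with 1 mean per condition over all 10 samples and an intensity trend. Fold changes on this scale understate those of low genes. P-values were adjusted by Benjamini-Hochberg over all tested genes with a threshold of 0.05, and the 8 comparisons were treatment against DMSO, concentration against concentration, and compound against compound. P-values set a difference of condition means against the spread between the 2 replicates of a condition. That spread was pooled over all 5 conditions and drawn toward the intensity trend. From each partner list, up to 2 called genes per direction were named at 5 µM, taken by size of the change, if at 5 FPKM or more in the higher group and with no overlap of samples. The 3 genes most like a member were named for the 2 members with the largest changes. The fit was tested on simulated data. Same-numbered replicates did not deviate together (r between -0.07 and 0.09), so no block was used. For the length trend, GENCODE transcript lengths were found for 11768 (92.0%) of the tested genes. The fits were repeated with median centring, a 0.1 pseudocount, all genes kept, a 5 FPKM filter, quantile normalization, no intensity trend, only the groups compared, the replicate block, removal of the length trend with and without that block, and leaving out each sample. The self-test and the fits were run in R, and the summary tables and figures were made with Python 3.11.15.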

Additional observations from a re-analysis of the deposited data

How the results depend on the processing

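Of the 22 calls of members, 4 were kept under all 20 alternatives: HDAC1 and HDAC7 with 5 µM CBP30 against DMSO and against 5 µM I-CBP112. None of the 22 changed sign. Of the 58 results that were not called, 39 were called under no alternative and 19 under at least 1, and their sign changed in 46 instances, none of them called. Of the 10 members, 6 were called with 5 µM CBP30 against DMSO and 2 to 6 when 1 sample was left out. With 2 µM CBP30 against DMSO 3 were called, 5 after quantile normalization, 0 in a fit of only the groups compared, and 2 to 7 when 1 sample was left out. With 5 µM I-CBP112 against DMSO 1 was called, 3 after quantile normalization, 2 with only the groups compared, 2 with the length trend removed (with or without the replicate block) and 0 to 2 when 1 sample was left out. With 2 µM I-CBP112, 0 to 1. Between the CBP30 concentrations 5 were called, 3 with no filter, 0 with only the groups compared and 1 to 6 when 1 sample was left out. Between the compounds at 5 µM 4 were called, 7 with only the groups compared, 7 with the length trend removed and 2 to 5 when 1 sample was left out, and at 2 µM 3 were called, 0 with only the groups compared and 0 to 5 when 1 sample was left out. The cause was not tested. The number of all genes called also moved with the setting. With the groups compared alone, 164 of all genes were lower and 143 higher with 2 µM CBP30 against DMSO, beside 2079 and 2032. Between the CBP30 concentrations 4 were lower and 2 higher, beside 2724 and 2255. Between the compounds 3531 were lower and 3025 higher at 5 µM, beside 2284 and 1736. At 2 µM they were 9 and 5, beside 1081 and 912. All-gene counts also changed with the sample left out, so member counts are to be read against them. Replicate numbers share only a number here (r between -0.07 and 0.09), and with the replicate block 5, 3, 1, 0, 4, 0, 5 and 3 members were called in the 8 comparisons, in the order 5 and 2 µM CBP30, 5 and 2 µM I-CBP112 against DMSO, concentrations of CBP30 and of I-CBP112, and compounds at 5 and 2 µM. HDAC4 fell under the filter at 5 FPKM and has no value there.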
